A study of Mus musculus with 32 samples.

Results

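The cerebellum of Fmr1-KO mice was compared with that of WT littermates on expression arrays. The members were chosen by their labels as the cerebellum arrays of 5 Fmr1-KO and 5 WT mice, 10 of the 32 arrays in the series, with 1 array for each mouse. Both groups were C57BL/6 congenic and were killed at 8 to 10 weeks of age, and no treatment was given in the sources. The knockout was carried in every tissue, so no promoter or Cre restricted it, and the sources used here do not say which part of the gene was disrupted or where the probes lie. The labels call every mouse female and the methods call them male. Xist, which females express from their silenced X, stood at 52.3 to 106 on these 10 arrays, and the Y-linked genes Eif2s3y, Kdm5d and Uty at 403 to 835, 563 to 736 and 337 to 584. The other arrays of the series are blood of the same mice, and blood and cerebellum of a Tsc2 heterozygous model with its own WT littermates.

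Fmr1 encodes FMRP, an RNA-binding protein that travels with mRNAs and ribosomes and holds back the translation of many synaptic proteins. Its loss in people causes fragile X syndrome. FMRP is abundant in neurons, where group I metabotropic glutamate receptors (mGluR) drive the local protein synthesis that it restrains, and in the cerebellum Purkinje cells depend on this receptor pathway for long-term depression. An array measures the amount of mRNA and not its translation, so the comparison asks which transcripts differ in level when FMRP is missing.

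The deposited values are intensities on a linear scale, 1 for each of 35556 probe sets, and 3.83% of the values on these arrays lie under 16. Markers of cerebellar cell types were bright. Pcp2 and Calb1 of Purkinje cells, Gabra6 and Neurod1 of granule cells and Mbp of oligodendrocytes all had intensities of 3820 to 8160 in both groups, while Chat of cholinergic neurons stayed at 86.3 to 115. Each of these markers overlapped between Fmr1-KO and WT mice. Chat does not stand for all markers of brainstem and forebrain neurons. Among them Neurod6, Penk and Hoxb3 were bright, at mean log2 levels of 13.47, 11.42 and 10.54.

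The array of Fmr1-KO mouse 1 stood apart from the rest. Its median intensity was 257, against 198 to 233 on the other 9 arrays, and its correlation with the mean of its group was 0.882, against 0.940 to 0.967. Dim probe sets were brighter on it and bright ones dimmer, with a median deviation from the other arrays of 0.77 on the log2 scale in the dimmest of 5 equal groups of probe sets and of -0.29 in the brightest. The array of Fmr1-KO mouse 5 leaned the same way, at 0.27 and -0.05. Fits were therefore run with all arrays and without Fmr1-KO mouse 1, and named genes that were no longer listed without mice 1 and 5 are given together after the separate genes. WT mouse 1 did not lean this way, but its correlation of 0.940 was the lowest after that of Fmr1-KO mouse 1. Its median absolute log2 deviation from the other arrays was 0.32, against 0.54 for Fmr1-KO mouse 1 and 0.20 for Fmr1-KO mouse 5. On the rest it was 0.11 to 0.17. WT mouse 1 was kept in both fits and is left out only where this is said.

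**Figure D1:**
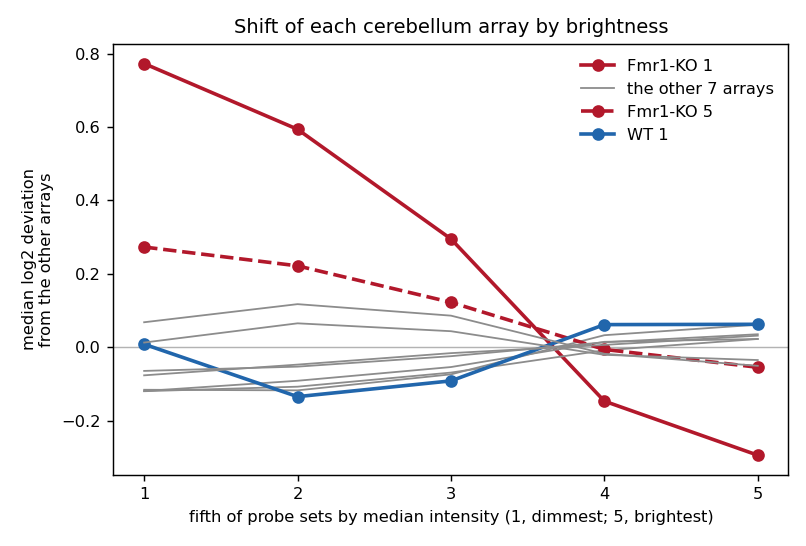
Median log2 deviation of each array from the median of the others (vertical axis) in 5 equal groups of probe sets by brightness (horizontal axis, dimmest to brightest). The line of Fmr1-KO mouse 1 runs from 0.77 to -0.29 and that of Fmr1-KO mouse 5 from 0.27 to -0.05, while WT mouse 1 and the other 7 arrays stay between -0.13 and 0.12.

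Large departures on these arrays were in gene families that the cerebellum is not known to use. Srsy and Ssty1/2 are multi-copy families of the long arm of the Y chromosome, known from spermatids. The median of 19 Srsy probe sets, several of which share values because their copies are near identical, was 2600 in Fmr1-KO mouse 1 and 1230 in Fmr1-KO mouse 5. It was 213 in Fmr1-KO mouse 2, 114 in WT mouse 1 and 28.1 to 56.8 in the other 6 mice. The 45 Ssty1 and Ssty2 probe sets followed the same order at the top, with a median of 3020 in Fmr1-KO mouse 1, 978 in Fmr1-KO mouse 5 and 27.4 to 216 in the others.

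The 17 probe sets of Gm7982, a predicted gene, had a median of 835 in Fmr1-KO mouse 1, 295 in Fmr1-KO mouse 5 and 68.4 to 116 elsewhere. Receptor genes of the nose were also brighter. The median of 1035 olfactory receptor probe sets was 177 in Fmr1-KO mouse 1, 92.8 in Fmr1-KO mouse 5 and 56.8 to 68.4 in the others, and that of 175 vomeronasal receptor probe sets was 105, 58.2 and 37.9 to 45.6. The sperm and spermatid genes Prm1, Prm2, Tnp1, Tnp2, Odf1, Akap4, Smcp, Ldhc and Pgk2, a list chosen after these arrays were seen, had a median of 268 in Fmr1-KO mouse 1, 134 in Fmr1-KO mouse 5 and 93.8 to 138 in the others. The median of the single-copy Y-linked genes Eif2s3y, Kdm5d and Uty was 467 and 571 in these 2 mice, inside the 403 to 736 of the other 8. Both arrays lie in the Fmr1-KO group, and their part in the results below was not tested beyond leaving them out.

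**Figure D2:**
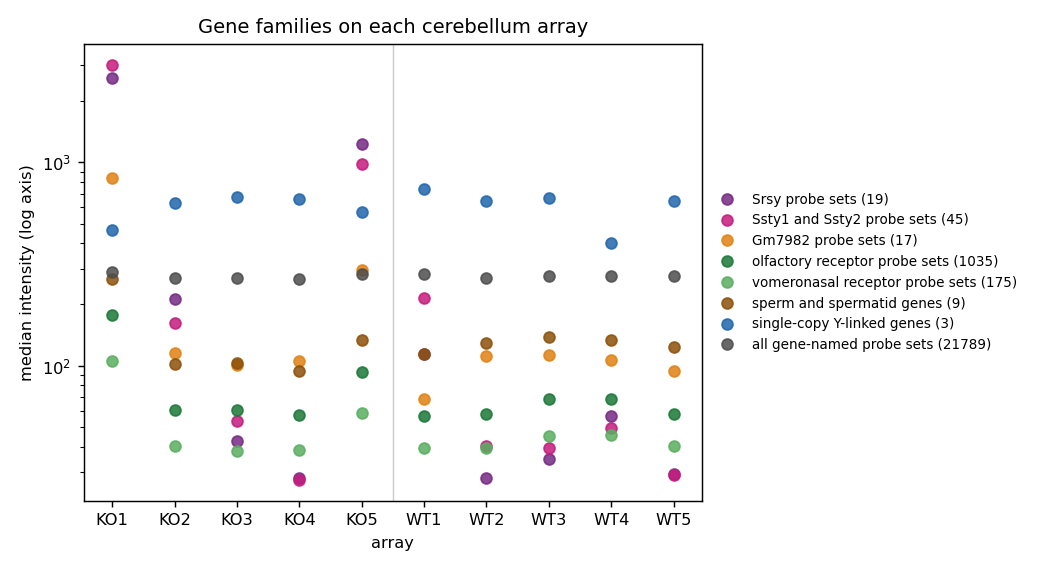
Median intensity (log axis) of each gene family on each cerebellum array, with KO for Fmr1-KO and the number of probe sets in brackets. Srsy, Ssty1/2 and Gm7982 stand far above the other arrays in KO1 and KO5, olfactory and vomeronasal receptors do so to a lesser degree, and the 3 single-copy Y-linked genes do not.

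Fmr1 itself was lower in every Fmr1-KO mouse. Its intensity was 141.9, 306.4, 283.3, 289.6 and 284.0 in Fmr1-KO mice 1 to 5 and 837.3, 868.2, 917.0, 831.9 and 833.3 in WT mice 1 to 5. The groups do not overlap, Fmr1-KO mice 2 to 5 lie close together, and mouse 1 is the lowest. With all 10 arrays the log2 difference was -1.77 (standard error 0.20), and limma gave it the smallest p of all probe sets but an adjusted p of 0.15. Without Fmr1-KO mouse 1 the difference was smaller, at -1.56, its standard error fell to 0.07, and the adjusted p was 0.00016. Fmr1 then fell 2.95-fold, from 857.5 ± 36.4 (SD, n = 5) in WT mice to 290.8 ± 10.8 (SD, n = 4) in Fmr1-KO mice. In the exact two-sided permutation test p was 0.0079 with 10 mice and 0.016 with 9, the smallest that each design allows. With Fmr1-KO mice 1 and 5 both left out the difference was -1.55 (adjusted p = 0.0015). The probe set thus kept a signal of 0.34 times the WT level in Fmr1-KO mice 2 to 5.

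**Figure D3:**
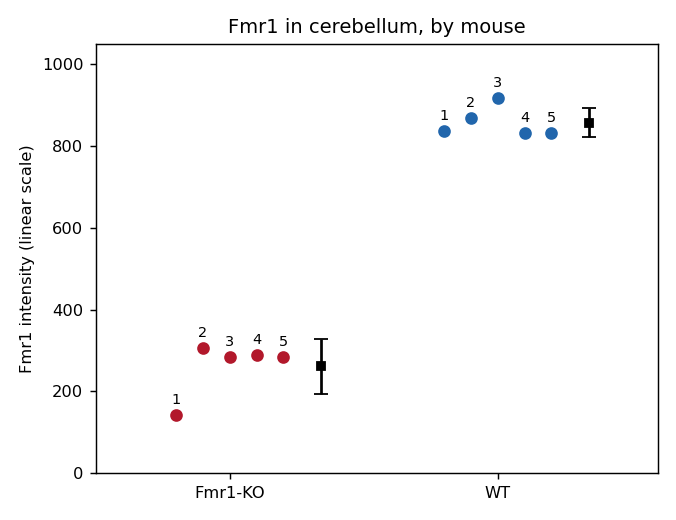
Intensity of Fmr1 on a linear scale for each mouse (numbered points), with the mean and SD of the 5 mice of each group as squares and bars. No Fmr1-KO mouse exceeds 306.4 and no WT mouse falls under 831.9, with Fmr1-KO mouse 1 lowest.

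The genes beside Fmr1 on the X chromosome were measured as a check of the locus. Among the 20 nearest measured genes on either side, by their order in the GRCm38 assembly, 0 of 40 passed an unadjusted p of 0.01 in either fit, which 0.0602% of all genes passed with 10 arrays and 0.176% without Fmr1-KO mouse 1. Mir465, a microRNA near the floor of the array, had the largest difference, -0.75 (standard error 0.31) without Fmr1-KO mouse 1. In that fit the median log2 difference of the 40 was 0.01, and the 27 with a mean log2 intensity of at least 6 lay between -0.21 and 0.18. Fmr1nb and Aff2, the next genes past Fmr1, stood there at 0.03 (standard error 0.19) and 0.07 (standard error 0.25), and at 0.17 (standard error 0.21) and 0.15 (standard error 0.24) with all arrays. A separate list of 33 named X-linked genes around Fmr1 had a median of -0.01 with all arrays, with 16 higher in both fits and 0 listed. Aff2 encodes a nuclear protein whose loss causes another form of intellectual disability.

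FXR1 and FXR2 are the paralogs of FMRP. The log2 difference of Fxr1 was -0.15 (standard error 0.29) with all arrays and 0.13 (standard error 0.15) without Fmr1-KO mouse 1, and that of Fxr2 was -0.09 (standard error 0.23) and 0.13 (standard error 0.12). Neither passed the test, and the sign turned with that array. Kif5b, a motor protein that carries FMRP granules, had an intensity of 1684 ± 285 (SD, n = 5) against 2096 ± 247 (SD, n = 5), a log2 difference of -0.33 (standard error 0.15), and of -0.22 (standard error 0.11) without Fmr1-KO mouse 1. Over the list of Fmr1 itself, its paralogs and FMRP partners the median difference was -0.13 and 0 of 18 members were higher in Fmr1-KO mice, and without mouse 1 it was -0.07 with 5 of 18 higher. The mean log2 level of these 18 genes was 9.85 in Fmr1-KO mouse 1 and 10.08 to 10.24 in the other Fmr1-KO mice, and it was 10.58 in WT mouse 1 and 10.20 to 10.35 in the other WT mice. Without mouse 1 of both groups the median was -0.0029 and 8 of 18 were higher. Over all genes 52.3% were higher with all arrays and 49.2% without Fmr1-KO mouse 1.

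Across the whole array few probe sets separated the genotypes. At an adjusted p under 0.05 limma called 0 of 35556 probe sets with all 10 arrays, where 592 (1.66%) had an unadjusted p under 0.05. Without Fmr1-KO mouse 1 it called 1, Fmr1 (0.00281% of those tested), and 882 (2.48%) had an unadjusted p under 0.05. At an unadjusted p under 0.01, the level at which probe sets are called listed here, it listed 70 (0.197%), of which 16 were higher (0.045%) and 54 lower (0.152%) in Fmr1-KO mice. Without Fmr1-KO mouse 1 it listed 128 (0.36%), 35 higher (0.0984%) and 93 lower (0.262%), and 46 were listed with the same sign in both fits. At both unadjusted thresholds these shares are smaller than the share that the threshold itself would pass if no probe set differed.

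The listed probe sets were mostly ones with no gene name. Of the 70, 57 (81.4%) have none in the platform's annotation, against 34.2% of all, and 52 (74.3%) carry numbers below the first named probe set, against 18.6% of all. Of the 54 lower ones, 46 belong to that unnamed block. The median level of the block was 7.05 (log2) in Fmr1-KO mouse 1, 6.57 to 6.84 in the other Fmr1-KO mice and 6.74 to 6.91 in WT mice. With Fmr1-KO mice 1 and 5 both left out, 281 probe sets (0.79%) were listed, 31 of them higher, and 1 passed the adjusted p.

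Listed genes with a name and a mean log2 intensity of at least 6 in both fits, the level set for naming a gene, numbered 8. Fmr1, Itpr3, Adcy8, Prr16 and Zfp52 were lower in Fmr1-KO mice and Galr1, Gmfg and Ifi27l2a higher. Among the 19938 genes taken at their brightest probe set, 12 (0.0602%) were listed with 10 arrays, 7 lower (0.0351%) and 5 higher (0.0251%), and 35 (0.176%) without Fmr1-KO mouse 1, 16 lower (0.0802%) and 19 higher (0.0953%). Apart from Fmr1 every one of them had an adjusted p near 1, and each was picked for its p in this comparison, so the values below describe the choice. For those whose groups do not overlap the exact two-sided permutation p was the smallest the design allows, 0.0079 with 10 mice and 0.016 with 9.

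Itpr3 encodes a receptor through which inositol trisphosphate releases calcium from the endoplasmic reticulum. Its intensity was 249.9, 286.2, 319.4, 304.3 and 281.9 in Fmr1-KO mice and 388.1, 406.9, 387.2, 386.2 and 353.4 in WT mice. All 5 Fmr1-KO values lie below all WT values. The log2 difference was -0.42 (standard error 0.10, adjusted p = 1.00) and -0.37 without Fmr1-KO mouse 1 (standard error 0.08). Leaving out Fmr1-KO mice 1 and 5 gave -0.34.

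Plcb4 encodes the phospholipase C that makes inositol trisphosphate in Purkinje cells after mGluR activation. It had 2073, 2164, 2533, 2295 and 2436 in Fmr1-KO mice and 3503, 3196, 2956, 2633 and 2636 in WT mice. The groups do not overlap, although Fmr1-KO mouse 3 and WT mice 4 and 5 lie close together. The log2 difference was -0.37 (standard error 0.12) with all arrays and -0.33 (standard error 0.11) without Fmr1-KO mouse 1, so it was listed in the first fit only. Fewer Purkinje cells in a sample and less of this RNA in each cell cannot be told apart in bulk tissue, and with all arrays 6 of 17 Purkinje markers were higher, with Pcp2 at -0.03 and Calb1 at -0.17.

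Adcy8 encodes a calcium-stimulated adenylyl cyclase of neurons that takes part in long-term potentiation. It had 2566, 3819, 3521, 3325 and 3088 in Fmr1-KO mice and 5257, 4388, 4190, 3962 and 4542 in WT mice. The groups do not overlap, and mouse 1 is at the outer end of each. The log2 difference was -0.46 (standard error 0.13) and -0.38 without Fmr1-KO mouse 1 (standard error 0.11). Without mouse 1 of both groups it was -0.32, and without Fmr1-KO mice 1 and 5 it was -0.33.

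Prr16, a gene linked to the control of cell size, had 407.0 to 462.7 in the 5 Fmr1-KO mice and 517.0 to 903.6 in the WT mice. The Fmr1-KO values lie close together and the WT values spread widely, with WT mouse 1 the highest. The log2 difference was -0.57 (standard error 0.15), and -0.59 (standard error 0.15) without Fmr1-KO mouse 1. Zfp52, a zinc finger gene, had 126.2 to 165.9 against 170.3 to 211.8, a difference of -0.39 (standard error 0.11), and -0.34 (standard error 0.10) without mouse 1.

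Galr1 encodes a receptor for the neuropeptide galanin. It had 93.9, 84.2, 100.3, 95.3 and 102.9 in Fmr1-KO mice and 76.7, 66.4, 75.1, 72.6 and 80.2 in WT mice, with no overlap. The log2 difference was 0.36 (standard error 0.10) and 0.37 (standard error 0.09) without Fmr1-KO mouse 1. The highest value, 102.9, was that of Fmr1-KO mouse 5. These levels are low, and at them the array of Fmr1-KO mouse 1 was brighter for most probe sets. With arrays quantile normalized again the difference was 0.23 and Galr1 was not listed.

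Gmfg, an actin regulator of blood and immune cells, had 91.8 to 108.3 in Fmr1-KO mice and 55.6 to 84.3 in WT mice. Its log2 difference was 0.50 (standard error 0.13) and 0.53 (standard error 0.13) without Fmr1-KO mouse 1, and 0.36, no longer listed, after quantile normalization. Ifi27l2a, an interferon-induced gene, had 92.5, 64.4, 85.4, 79.3 and 83.2 against 44.5, 63.2, 53.7, 58.6 and 58.0. Fmr1-KO mouse 2 lies next to WT mouse 2 and the other Fmr1-KO mice clearly above. The difference was 0.54 (standard error 0.13) and 0.49 (standard error 0.13) without Fmr1-KO mouse 1.

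Il7r, the interleukin-7 receptor of lymphocytes, was dim in cerebellum, at 31.5, 22.6, 13.8, 18.5 and 29.7 in Fmr1-KO mice and 12.9, 10.98, 12.6, 7.6 and 14.2 in WT mice. The highest values were those of Fmr1-KO mice 1 and 5, and Fmr1-KO mouse 3 overlapped the WT mice. Its log2 difference was 0.96 (standard error 0.25), 0.84 (standard error 0.25) without Fmr1-KO mouse 1 and 0.66 without mice 1 and 5. Ccl3, a chemokine of activated microglia, was also dim, at 70.5 ± 24.8 (SD, n = 5) against 41.7 ± 13.1 (SD, n = 5), a difference of 0.75 (standard error 0.25) and of 0.56 (standard error 0.21) without mouse 1.

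**Figure D4:**
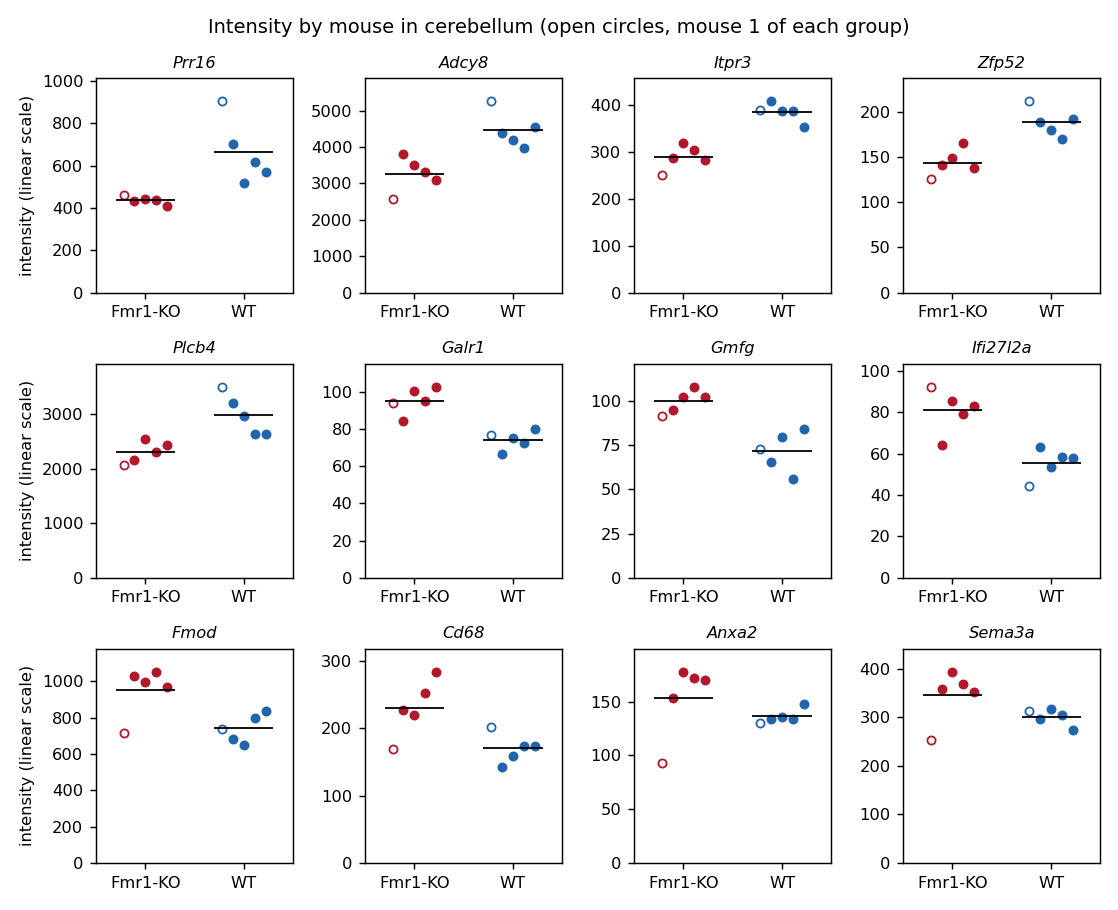
Intensity on a linear scale (vertical axes from 0) of 12 genes in each Fmr1-KO and WT mouse, with open circles for mouse 1 of each group and lines for the mean of 5. In the top row and for Plcb4, Galr1, Gmfg and Ifi27l2a the groups do not overlap, and in the bottom row Fmr1-KO mouse 1 lies apart from the other 4 Fmr1-KO mice.

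Of the 35 genes listed without Fmr1-KO mouse 1, 8 of the 16 lower ones and 4 of the 19 higher ones had a mean log2 intensity under 6. Those described here were picked after their values were seen. Fmod, a collagen-binding proteoglycan of connective tissue, had 715.8 in Fmr1-KO mouse 1, 966.3 to 1053 in the rest of its group and 647.0 to 834.0 on WT arrays. Its log2 difference was 0.36 (standard error 0.13) with all arrays and 0.46 (standard error 0.10) without mouse 1. Anxa2, a membrane-binding protein of fibroblasts and vessels, had 93.2 in Fmr1-KO mouse 1, 153.0 to 177.9 in the rest of its group and, on WT arrays, a lowest value of 130 and a highest of 147.8. Its difference was 0.13 (standard error 0.17) with mouse 1 and 0.30 (standard error 0.08) without.

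Cd68, a lysosomal protein of microglia and macrophages, had 169.2 in Fmr1-KO mouse 1, 219.8 to 283.8 in the rest of its group and 141.9 to 202.1 on WT arrays, a difference of 0.43 (standard error 0.15) and of 0.54 (standard error 0.12) without mouse 1. H2-Eb1, a class II histocompatibility chain, stood at 0.33 (standard error 0.17) and 0.45 (standard error 0.14), and Alox5ap, which serves leukotriene synthesis in myeloid cells, at 0.28 (standard error 0.10) and 0.29 (standard error 0.09). All 3 were higher in Fmr1-KO mice in both fits, and only the fit without mouse 1 listed them.

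Sema3a, a secreted repellent of growing axons, had 253.0 in Fmr1-KO mouse 1, 351.9 to 394.4 in the rest of its group and 274.5 to 318.3 on WT arrays. The difference was 0.18 (standard error 0.13) with mouse 1 and 0.29 (standard error 0.08) without. Pqbp1, an X-linked splicing factor whose mutation causes intellectual disability, had 1261 in Fmr1-KO mouse 1, 2375 to 2642 in the rest of its group and 1920 to 2163 on WT arrays, a difference of 0.07 (standard error 0.20) and of 0.27 (standard error 0.08). For Fmod, Anxa2, Cd68, Sema3a and Pqbp1 the remaining Fmr1-KO mice do not overlap the WT mice. These genes were picked from those listed without mouse 1, so this separation describes the choice and is no further evidence. Btla, an inhibitory receptor of lymphocytes, was dim and listed as lower, at 106.4 in Fmr1-KO mouse 1, 7.0 to 31.7 in the rest of its group and 19.99 to 74.1 on WT arrays. Its difference was -1.16 (standard error 0.68) with all arrays and -1.76 (standard error 0.49) without mouse 1. Mir30d and Pappa, a protease that frees insulin-like growth factor, were listed as lower, at -0.31 (standard error 0.09) and -0.35 (standard error 0.10), against -0.11 and -0.25 with mouse 1.

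Without Fmr1-KO mice 1 and 5, with 3 against 5 mice, Adcy8, Prr16, Zfp52, Galr1, Ifi27l2a, Il7r, H2-Eb1, Alox5ap, Anxa2 and Pqbp1 were no longer listed and kept their sign. Prr16 stood at -0.57, Zfp52 at -0.31, Galr1 at 0.33, Ifi27l2a at 0.46, H2-Eb1 at 0.37, Alox5ap at 0.31, Anxa2 at 0.30 and Pqbp1 at 0.26. Plcb4, listed with all arrays only, was not listed in this fit either and stood at -0.35. Fmr1, Itpr3, Gmfg, Fmod, Cd68, Sema3a, Btla, Mir30d and Pappa were still listed.

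Differences of over 2-fold were rare. Of 19345 gene-named probe sets with a mean log2 of at least 6, 36 differed by over 2-fold between the group means of log2 values with all arrays, and 22 without Fmr1-KO mouse 1. Of those 22, 19 were Srsy probe sets, and the others were Gm7982, Fmr1 and Gzmd. Gzmd, a granzyme of cytotoxic cells, had 5.0 in WT mouse 1 and 223.2 to 1089 on the other 9 arrays. Of these 22, Fmr1 was the only probe set whose groups do not overlap. The median standard error there was 0.16 with all arrays and 0.13 without mouse 1, so that a fold of 1.42 and of 1.34 reached a p of 0.01 at the middle of the array.

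Most lists of neuronal genes had medians slightly below WT. Beside the all-gene median of 0.009 with 10 arrays and -0.002 without Fmr1-KO mouse 1, the 38 measured mRNAs known to be bound by FMRP had a median log2 difference of -0.10, and -0.06 without mouse 1. Of these 38, 3 were higher with all arrays and 7 without mouse 1, and 0 had an unadjusted p under 0.05 in either fit, where 1.07% and 1.54% of all genes did. Over all genes 52.3% were higher with all arrays and 49.2% without mouse 1, the share beside every such count below. The mean log2 level of the 38 was 10.23 to 10.64 on these arrays, against 8.06 to 8.26 for all genes. Bright probe sets were dimmer on Fmr1-KO mouse 1, so all genes are not a like background. Map1b, a microtubule protein whose mRNA is a classic FMRP target, stood at -0.13 (standard error 0.35) with all arrays and -0.32 (standard error 0.34) without mouse 1. Dlg4, the postsynaptic scaffold PSD-95, stood at -0.08 (standard error 0.16) and -0.15 (standard error 0.16), and Camk2a, a synaptic kinase, at -0.02 (standard error 0.17) and -0.04 (standard error 0.18). Arc, which removes glutamate receptors from the synapse, stood at -0.007 (standard error 0.11) and -0.08 (standard error 0.09). Without mouse 1 of both groups the median of the 38 was -0.02 and 14 were higher.

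In group I mGluR signalling, Plcb4 was the only 1 of 15 genes listed with all arrays, where 0.0602% of all genes were, and 0 were listed without mouse 1, where 0.176% were. Homer1, the scaffold that ties these receptors to calcium stores, had 548.1 ± 36.9 (SD, n = 5) against 631.2 ± 27.2 (SD, n = 5), a log2 difference of -0.21 (standard error 0.09) and of -0.18 (standard error 0.08) without mouse 1. Grm5, the receptor mGluR5, stood at -0.18 (standard error 0.19) and -0.05 (standard error 0.16). The median of the 15 genes was -0.07, and -0.05 without mouse 1. Of 16 ionotropic glutamate receptor genes, 20 GABA-A receptor and GABA synthesis genes, 41 potassium channel genes and 30 calcium and sodium channel genes, 0 had a p under 0.05 in either fit. Their medians were -0.07, -0.10, -0.10 and -0.07 with all arrays and -0.04, -0.05, -0.06 and -0.006 without mouse 1. A p under 0.05 was reached by 1.07% and 1.54% of all genes in these fits. WT mouse 1, kept in both fits, had the highest mean log2 level of all arrays on each of these lists. For GABA genes it was 10.17, against 9.63 to 9.84 in Fmr1-KO mice and 9.65 to 9.81 in the other WT mice. For potassium channels it was 9.82, against 9.34 to 9.50 and 9.37 to 9.49. For calcium and sodium channels its lead was small, at 10.1 against 10.08 in WT mouse 2. Gria3, an AMPA receptor subunit, had the smallest p among the ionotropic receptors, at 1023 ± 88.3 (SD, n = 5) against 1271 ± 266 (SD, n = 5) and a difference of -0.30 (standard error 0.14), and of -0.26 (standard error 0.14) without mouse 1. Its value was 1743 in WT mouse 1, 1093 to 1192 in the other WT mice and 911.8 to 1146 in Fmr1-KO mice.

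The phosphoinositide list held 2 listed genes among 63, Itpr3 and Plcb4, both lower, and 1 of them, Itpr3, without Fmr1-KO mouse 1. Of all genes 0.0602% were listed in the first fit and 0.176% in the second. The study had drawn attention to this pathway on the same mice, so the count is no independent evidence. Inpp4b, a phosphatase of these lipids, had 334.9, 438.2, 477.5, 415.4 and 445.8 against 538.2, 534.5, 450.7, 498.7 and 521.8, a difference of -0.28 (standard error 0.12) and of -0.19 (standard error 0.09) without mouse 1. Over the 63 genes the median moved from -0.09, with 15 higher, to -0.004, with 29 higher, once mouse 1 was left out. Prkca, a protein kinase C, moved from -0.31 (standard error 0.18) to -0.18 (standard error 0.14), and Dgkh and Inpp5a stood at -0.24 (standard error 0.15) and -0.13 (standard error 0.15) with all arrays, and at -0.11 (standard error 0.08) and -0.14 (standard error 0.15) without mouse 1.

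Of the 38 genes of calcium and cAMP signalling in long-term potentiation, Adcy8 alone was listed, in both fits. The median of that list was -0.11 with 3 higher, and -0.04 with 10 higher without mouse 1. Of all genes 0.0602% were listed with all arrays and 0.176% without mouse 1. Of 66 axon guidance genes, Sema3a was listed as higher without mouse 1. Plxnd1, a semaphorin receptor, had 222.4 to 283.5 in Fmr1-KO mice and 288.0 to 338.3 in WT mice, with no overlap and a difference of -0.26 (standard error 0.10). Epha8, an ephrin receptor, stood at -0.23 (standard error 0.10). Without mouse 1 they stood at -0.20 (standard error 0.08) and -0.20 (standard error 0.08). In the mTOR pathway, which senses nutrients and growth factors, 0 of 40 genes had a p under 0.05, with medians of -0.08 and -0.02. Over all genes 1.07% had such a p with all arrays and 1.54% without mouse 1. The connexins and tubulins of gap junctions also had 0 of 19, with medians of 0.03 and 0.05. The 34 SNARE genes of vesicle fusion had medians of -0.11 and -0.02, the 37 genes of the citrate cycle and glutamate metabolism -0.09 and -0.009, the 20 clock genes -0.06 in both fits and the 21 glucocorticoid response genes -0.04 and -0.03, with 0 members at a p under 0.05.

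Cytosolic ribosomal proteins lay the other way. Of 55 genes 36 were higher in Fmr1-KO mice with all arrays (median 0.07) and 50 without Fmr1-KO mouse 1 (median 0.17). Rplp2, of the ribosomal stalk, was the only member with a p under 0.05 in that fit, at 0.48 (standard error 0.20), against 0.24 (standard error 0.29) with all arrays, and 0 were listed. The mean log2 level of these genes was 10.40 in both Fmr1-KO mouse 1 and WT mouse 1, 10.77 to 11.01 in the other Fmr1-KO mice, 10.64 to 10.94 in WT mice 2 to 4 and 11 in WT mouse 5. Without mouse 1 of both groups the median was 0.08, with 45 of 55 higher. The respiratory chain and ATP synthase moved in the same manner, from a median of -0.02 (29 of 71 higher) to 0.08 (53 of 71), with 0 of 71 at a p under 0.05. Of all genes 1.07% had such a p with all arrays and 1.54% without mouse 1, and 0.0602% and 0.176% were listed. Heat shock chaperones went from -0.11 with 4 of 26 higher to 0.02 with 15. Hspb1, a small heat shock protein, had 594 ± 142 (SD, n = 5) against 443 ± 32.0 (SD, n = 5), a difference of 0.40 (standard error 0.16) and of 0.27 (standard error 0.11).

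Among the immediate early genes, which neurons switch on with activity, Fos had 634.6 ± 188.5 (SD, n = 5) against 431.0 ± 123.8 (SD, n = 5), a log2 difference of 0.56 (standard error 0.23) and of 0.62 (standard error 0.24) without mouse 1. Nr4a3 stood at 0.50 (standard error 0.31) and Egr4 at 0.20 (standard error 0.12) with all arrays, and at 0.51 and 0.18 without mouse 1. Of the 26 genes 20 were higher with all arrays and 15 without mouse 1. Listed members numbered 0 in both fits, where 0.0602% and 0.176% of all genes were listed.

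Chemokine and complement lists shifted when Fmr1-KO mouse 1 was left out. Of 49 chemokines and their receptors 44 were higher with all arrays (median 0.14) and 24 without mouse 1 (median -0.0008), and with Fmr1-KO mice 1 and 5 left out 12 were (median -0.09). Their mean log2 level was 7.43 in Fmr1-KO mouse 1, 6.998 in Fmr1-KO mouse 5 and 6.51 to 6.80 in the other 8 mice. The olfactory receptors were also brightest in Fmr1-KO mouse 1, then mouse 5, while the order of the other mice differed. Complement and coagulation genes gave 47 of 56 (median 0.11), 36 (0.04) and 25 (-0.01) in the same 3 fits. C1qc, a chain of the complement starter C1q, which microglia make, had a difference of 0.20 (standard error 0.12) and of 0.26 (standard error 0.10) without mouse 1.

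Interferon-stimulated genes had 19 of 31 higher at a median of 0.06, 21 at 0.08 without mouse 1 and 19 at 0.05 without mice 1 and 5. Ifi27 had the smallest p among them without mouse 1, at 0.45 (standard error 0.15), against 0.12 (standard error 0.32) with mouse 1. The 35 genes of MHC and antigen presentation had medians of 0.12 and 0.06, with H2-Eb1 listed without mouse 1. The 71 cytokine receptors had medians of 0.02 and 0.01, with Il7r listed in both fits. Over all genes 0.0602% were listed with all arrays and 0.176% without mouse 1.

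Markers of the cell types that a cerebellum sample can hold were compared in the same way. Purkinje cell markers had 6 of 17 higher (median -0.06) with all arrays and 7 (-0.04) without mouse 1. Granule cell markers had 2 of 18 (-0.11) and 6 (-0.07), and oligodendrocyte markers 5 of 19 (-0.10) and 7 (-0.05). On both lists WT mouse 1 had the highest mean log2 level. It was 12.22 against 11.93 to 12.17 on the other arrays for granule cells, and 10.25 against 9.685 to 10.02 for oligodendrocytes. Markers of astrocytes and Bergmann glia had 8 of 17 in both fits, at -0.008 and -0.001. Microglial markers had 13 of 16 (0.07) and 9 (0.06). Apart from Plcb4, which is in the Purkinje list, 0 of the markers of these 5 cell types were listed in either fit. The share of all genes listed was 0.0602% with all arrays and 0.176% without mouse 1.

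Most markers of choroid plexus and meninges, tissues that can come along in dissection, lay above WT. Of 14 choroid plexus markers 14 were higher with all arrays (median 0.13), 13 without mouse 1 (0.18) and 14 without Fmr1-KO mice 1 and 5 (0.24). Folr1, a folate receptor of the plexus, had 0.18 (standard error 0.20) and 0.34 (standard error 0.14), while Ttr, the transthyretin that defines the plexus, had 11100 to 14700 against 11100 to 14400 and a difference of 0.06, and of 0.11 without mouse 1. The mean log2 level of the 14 markers was 9.36 to 9.82 in Fmr1-KO mice and 9.32 to 9.73 in WT mice, so the groups overlap. Of 13 meningeal and fibroblast markers 13 were higher with all arrays and 12 without mouse 1 (median 0.16 in both fits), and 10 without mice 1 and 5 (0.15). Their mean level was 8.28 to 8.44 in Fmr1-KO mice and 8.10 to 8.36 in WT mice. Fmod and Slc6a13, a GABA transporter of the meninges, led that list, the latter at 0.30 (standard error 0.16) and 0.40 (standard error 0.13), while Dcn, a defining gene of these cells, had 535 to 802 against 512 to 1100. The part of these tissues in the differences of Fmod, Anxa2 and Cd68 was not tested.

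White blood cell markers were dim and moved with the outlying arrays. Of 16 markers 13 were higher with all arrays (median 0.25) and 11 without mouse 1 (0.12), and their mean level was 6.34 in Fmr1-KO mouse 1, 5.74 in mouse 5 and 5.15 to 5.47 in the other 8. Red blood cell markers had 5 of 7 higher in both fits, at 0.10 and 0.04. Endothelial and mural cell markers had 9 of 18 (0.006) and 13 (0.10). Markers of molecular layer interneurons and Golgi cells had 3 of 14 (-0.04) and 4 (-0.04), and those of brainstem and forebrain neurons 7 of 18 (-0.04) and 6 (-0.07). The interneuron and Golgi cell markers had a mean log2 level of 10.49 in WT mouse 1 and 9.72 to 9.96 on the other arrays.

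**Figure D5:**
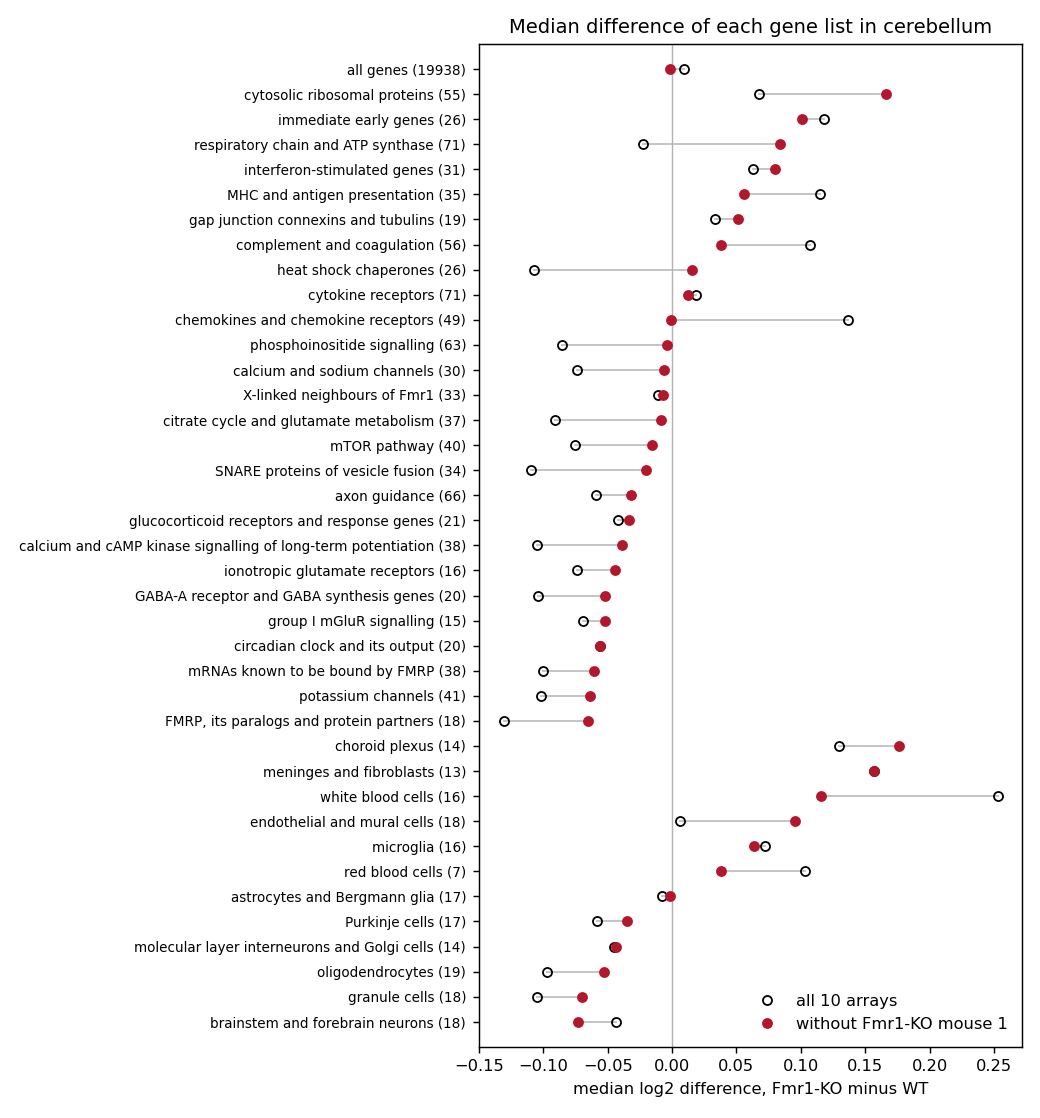
Median log2 difference, Fmr1-KO minus WT, of each gene list with all 10 arrays (open circles) and without Fmr1-KO mouse 1 (filled circles), with the number of genes measured in brackets and all genes at the top. Most lists shift between the fits, chemokines from 0.14 to -0.0008 and ribosomal proteins from 0.07 to 0.17, and the meningeal list stays at 0.16.

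Other genes that the study had named in its text or tables were measured in cerebellum alone. Tsc2, which encodes tuberin, stood at -0.004 on the log2 scale (standard error 0.16) and Grin3a, an NMDA receptor subunit, at -0.04 (standard error 0.13). Eps8, an actin-capping protein, stood at -0.07 (standard error 0.14) and Eps8l1, its relative, at -0.15 (standard error 0.16). Without mouse 1 these 4 stood at -0.07, -0.05, -0.02 and -0.18. By quantitative RT-PCR on the brain samples the study reported Grin3a as lower in Fmr1-KO mice, which its arrays did not show. Nfatc2, a calcium-regulated transcription factor, had 177.9 to 202.0 in Fmr1-KO mice and 208.2 to 300.2 in WT mice, with no overlap, a difference of -0.29 (standard error 0.12), and of -0.31 (standard error 0.12) without mouse 1. Cog7, of the Golgi tethering complex, had -0.27 (standard error 0.12) and -0.20 (standard error 0.09). Chd7, a chromatin remodeller, moved from -0.19 (standard error 0.20) to -0.03 (standard error 0.14) once Fmr1-KO mouse 1 was left out. Cc2d1a, Smurf1, Sec31a and AU040320 stood between -0.11 and -0.08, with standard errors of 0.10 to 0.12, and between -0.09 and -0.05 without mouse 1. Tmlhe, Hmga1, Dgkb and Dgkg had no probe set with a single gene name here.

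Whether these differences hold in the other tissue was asked by an interaction term. In blood of the same mice Fmr1 had 221.4 ± 43.1 (SD, n = 5) against 549.3 ± 129.8 (SD, n = 5), a log2 difference of -1.30, and the difference between cerebellum and blood was -0.47 (standard error 0.30, adjusted p = 0.99), or -0.27 (standard error 0.24) without mouse 1. Limma called 3 of 35556 probe sets for that interaction (0.00844%), none of them with a gene name. Ifi27l2a stood at 319.3 against 350.0 in blood, a difference of -0.14, and its interaction was 0.68 (standard error 0.17, adjusted p = 0.99). Gmfg, at -0.11 in blood, had an interaction of 0.61 (standard error 0.19), and Il7r, at -0.16, one of 1.13 (standard error 0.30), and neither passed adjustment. Itpr3 had -0.22 (standard error 0.16), Adcy8 -0.25 (standard error 0.24) and Prr16 -0.35 (standard error 0.28). Without the cerebellum array of Fmr1-KO mouse 1 the interaction was 0.63 for Ifi27l2a, 0.64 for Gmfg, 1.00 for Il7r, -0.17 for Itpr3, -0.17 for Adcy8 and -0.37 for Prr16, and 3 probe sets were called.

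The same question was put to the cerebellum of the Tsc2 model, 3 heterozygous against 3 WT mice. Fmr1 differed there by -0.01, and the difference between the models was -1.76 (standard error 0.28, adjusted p = 0.18). Without Fmr1-KO mouse 1 it was -1.55 (standard error 0.12, adjusted p = 8.9e-05), and Fmr1 was among 4 probe sets called. With all arrays 3 probe sets were called, none with a gene name (0.00844%). Ifi27l2a, at -0.07 in the Tsc2 model, had a difference between models of 0.62 (standard error 0.19), and Itpr3, at -0.03, one of -0.39 (standard error 0.16). Galr1, at -0.06, had 0.42 (standard error 0.16). All 3 had an adjusted p of 1. Il7r was higher in both models, at 0.83 in the Tsc2 model, and differed between them by 0.13 (standard error 0.38). Without mouse 1 the differences between models were 0.56 for Ifi27l2a, -0.34 for Itpr3, 0.43 for Galr1 and 0.006 for Il7r. The Tsc2 mice had a mixed background, and strain and model cannot be told apart in this term.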

How the data were processed

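RNA of 10 cerebella was hybridised to Affymetrix Mouse Gene 1.0 ST arrays. The authors deposited intensities on a linear scale, computed with Affymetrix Power Tools by quantile normalization of the probes over the 32 arrays, then the PLIER model. Quantile normalization draws all arrays to 1 distribution, and small differences near the floor become large on a log scale. Here the log2 of each deposited intensity was taken without an added constant. Genotype was fitted by limma 3.58.1 (lmFit and eBayes) under R 4.3.3 to all 35556 probe sets, with Benjamini-Hochberg adjustment, and single genes were tested by exact permutation. All tests are two-sided. Listing uses the unadjusted limma p, and standard errors are those of limma.

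By the platform annotation 21789 probe sets have 1 gene name, 1621 several and 12146 none. Genes were named if they passed the adjusted p in either fit, or were listed with the same sign in both fits at a mean log2 of at least 6. Genes with 1 of the 4 smallest p of a list, or named by the study, were named as well. Defining markers were named too. Genes listed only without Fmr1-KO mouse 1, Gzmd, Rplp2, Ifi27, Folr1, the FMRP paralogs and neighbours and the well-known FMRP targets and receptors lie outside this rule and were chosen after their values were seen. A gene stands for its brightest probe set. The 38 lists came from textbook knowledge, and they, the members and the rules were chosen with earlier results of these data known. Mice are separate animals, and their number limits the precision. The methods were tested on simulated data. Alternatives were other offsets, filters, normalizations, variance models, weights and samples, the replicate block and the methods' t-test. Fits that leave out 2 or 3 mice, interactions of named genes without Fmr1-KO mouse 1, and the sperm list, were chosen after seeing the data. The files name no genome build, so no coordinates are given, and the GRCm38 table served only for gene order and chromosome.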

Additional observations from a re-analysis of the deposited data

Results flagged for a closer look

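Of 58 sets of 5 values examined, 10 had a sample that stood far from the other 4. About 1 in 20 would by chance if the sets were independent. They are not, because all sets come from the same 5 Fmr1-KO and 5 WT arrays. Fmr1-KO mouse 1 was that sample for Fmr1 (141.9), Tsc2 (1195), Chd7 (1572), Plxnd1 (222.4), Dgkh (390.8) and the correlation with its group (0.88154). Fmr1-KO mouse 5 was lowest for Inpp5a (3355). WT mouse 1 was highest for Eps8 (1813) and Nfatc2 (300.2) and lowest for Chd7 (2060).

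Limma called an interaction of genotype with tissue or model at 6 probe sets without a gene name, on log2 values with no added constant. Between cerebellum and blood it differed by 9.467 on the log2 scale at probe set 10339059, by 8.495 at 10339844 and by 10.88 at 10342589, where the difference in blood was -9.07, -8.71 and -11.1. Between the Fmr1 and Tsc2 models in cerebellum it differed by -9.831 at 10340657, by 3.426 at 10563959 and by 4.809 at 10564209, where the difference in the Tsc2 model was 9.67, -3.54 and -4.96. At all 6 the difference in Fmr1-KO cerebellum lay between -0.219 and 0.402.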

How the results depend on the processing

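The median standard error over dim probe sets was 0.293 with all arrays, against 0.174 over the others. With all 10 arrays 1 probe set, Fmr1, passed the adjusted p when 16 was added before log2 (-1.701), with dim probe sets left out (-1.767), with a variance trend (-1.767), with array weights (-1.573) and with all 16 cerebellum arrays in 1 fit (-1.767). Fits chosen after seeing the data called 1 without Fmr1-KO mice 1 and 5 (-1.548), 1 without mouse 1 of both groups (-1.568) and 2 without all 3 mice (-1.557). Quantile normalization gave Fmr1 an adjusted p of 0.854 and centring 0.842. Leaving out each mouse in turn gave 0 to 1 calls and -1.837 to -1.56 for Fmr1. The call without WT mouse 4 was another probe set, with Fmr1 second. The 70 listed probe sets became 33 with dim probe sets left out, 133 after quantile normalization, 587 with array weights, 53 to 128 with each mouse left out (107 without Fmr1-KO mouse 3), 281 without Fmr1-KO mice 1 and 5, 214 without mouse 1 of both groups and 649 without all 3. Without Fmr1-KO mouse 1, the 128 became 84 with dim probe sets left out, 637 with array weights (2 past the adjusted p) and 104 to 281 with each further mouse left out, and 1 was called in each of those fits. The 3 tissue interactions became 0 with 16 added and 1 with the variance trend. The replicate block gave 95 listed and 0 called. Samples of 1 number correlated by -0.014 to 0.228, so the numbers were not taken as pairs.

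Genes listed with all arrays lost their listing in some of the alternative fits and kept their sign. Plcb4 lost it in 14 fits and kept it in 8, Galr1 in 10 and 12, and Adcy8 and Zfp52 each in 9 and 13. Gmfg lost it in 6 fits, Il7r in 5, Ifi27l2a in 4, Prr16 in 2 and Itpr3 in 1. Some differences near 0 turned sign. With array weights Eps8 had 0.09251, Grin3a 0.006449, Tsc2 0.02705 and Smurf1 0.003974. Without Fmr1-KO mice 1 and 5 Eps8 had 0.02145, Smurf1 0.01534 and Sec31a 0.002066. Without mouse 1 of both groups Eps8 had 0.0929, Grin3a 0.04386, Tsc2 0.06535 and AU040320 0.003076. Without all 3 mice Eps8 had 0.1348, Grin3a 0.07173, Tsc2 0.05276, Smurf1 0.0719, Sec31a 0.04695 and Inpp5a 0.0533. Quantile normalization gave Tsc2 0.01293. With each mouse left out Eps8 ranged from -0.1135 to 0.04297, Grin3a ranged from -0.1015 to 0.05445 and Tsc2 ranged from -0.07552 to 0.1267. The causes were not tested.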
